A study of Mus musculus with 30 samples.

Results

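Collagen genes of the mouse were examined in fat and liver of LFABP-/- and WT mice, the fat being white from the inguinal depot (iWAT) and brown from between the shoulder blades (iBAT). In the table of 41549 genes, 44 carry a collagen chain name, which is Col followed by the number of the collagen type, the letter a and the number of the chain. The 13 of them whose mean was under 1 in all 3 tissues were left out, which leaves 31 collagen genes, among 15561 genes of the whole table that reach the same level in at least 1 tissue. Just under the limit was Col4a3, with a mean of 0.97 in iWAT, and just over it were Col9a3 (1.03), Col17a1 (1.04) and Col6a5 (1.10), all by their iWAT mean. The set holds 8 fibrillar collagens (Col1a1, Col1a2, Col3a1, Col5a1, Col5a2, Col5a3, Col11a2 and Col27a1), 5 network collagens (Col4a1, Col4a2, Col4a4, Col4a5 and Col8a1), 5 fibril-associated collagens (Col9a3, Col12a1, Col14a1, Col16a1 and Col20a1), 6 type VI collagens (Col6a1 to Col6a6) and 7 others (Col7a1, Col13a1, Col15a1, Col17a1, Col18a1, Col23a1 and Col28a1).

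LFABP-/- mice lack the liver fatty acid-binding protein, which Fabp1 encodes, and WT mice carry it. All 10 mice were males on a C57Bl/6J background that were put at 2 months of age on a diet with 45 kcal % fat, rich in saturated fat, for 12 weeks and were fasted for 4 h before collection. Each mouse gave iWAT, iBAT and Liver, so that there were 6 groups of 5 libraries: LFABP-/- and WT in each tissue. No mouse on another diet is among the libraries, and pieces of whole tissue were sequenced, in which fewer cells of a type and less RNA per cell cannot be told apart.

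Collagens are secreted proteins whose chains wind around each other in a long helix. Fibrillar collagens form the ropes of connective tissue, with type I and type III as the bulk and type V at the start of the fibril. Type IV chains join into the sheet of the basement membrane that surrounds every adipocyte and blood vessel, type VI chains form beaded filaments in the space around cells, and fibril-associated collagens sit on the surface of fibrils. Col15a1 and Col18a1 encode the core proteins of proteoglycans next to basement membranes, and the end of the Col18a1 protein can be cut off as endostatin. In adipose tissue collagens come mostly from fibroblasts, adipocyte progenitors and cells of vessels, and in healthy liver mostly from stellate cells, with Col18a1 made by hepatocytes themselves.

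The authors' table calls its values RPKM, but in each library they sum to 999967.3 to 999996.4, as TPM values do, so a value is a share of about that total that is already divided by gene length and can be compared between genes. Fabp1 was at 51.8, 13.7, 0.3, 0.6 and 0.2 in LFABP-/- livers, against 9165.5 to 12697.6 in WT livers. In iWAT, the library labelled LFABP-/- replicate 1 held 196.1 of Fabp1, where the other LFABP-/- libraries held 0.2 to 0.9 and WT libraries 1.9 to 23.9, so its label and its Fabp1 do not match, and the call in iWAT is given without it too. Its hepatocyte markers summed to 3107.1, against 422.2 to 885.9 in the other LFABP-/- and 898.2 to 3844.6 in WT iWAT libraries. In iBAT, Fabp1 was at 0.4, 2.0, 21.2, 15.0 and 13.1 in the libraries labelled LFABP-/-, against 1.4, 0.2, 0.4, 5.1 and 8.7 in WT libraries. The 3 libraries labelled LFABP-/- replicates 3, 4 and 5 thus held more Fabp1 than every WT iBAT library, against their label, and the calls in iBAT are given without them too. By the labels, the livers of the same 3 mice held 0.3, 0.6 and 0.2 of Fabp1, far below WT livers, as the label LFABP-/- says. Where the Fabp1 in their iBAT libraries came from was not tested. A few libraries stood apart in markers of other cells. Summed lymphocyte markers were 1239.5, 2312.3 and 2132.6 in LFABP-/- iWAT replicates 2, 3 and 4 and 809.1 and 2990.1 in WT iWAT replicates 3 and 4, against 49.8 and 55.2 in the other LFABP-/- and 26.7 to 36.7 in the other WT iWAT libraries. Brown adipocyte markers summed to 2813.8 in LFABP-/- iWAT replicate 2, against 303.4 to 803.6 in the other LFABP-/- and 187.0 to 739.8 in WT iWAT libraries, and that library had the lowest collagen sum of its group (2921.1). In iBAT, hepatocyte markers reached 1229.7, 1768.8 and 1585.6 in LFABP-/- replicates 1, 2 and 3, against 296.4 and 183.4 in the other LFABP-/- and 53.1 to 207.5 in WT libraries. In liver, WT replicate 5 had the highest macrophage (1081.1, against 274.0 to 413.2 in the other WT livers) and fibroblast markers.

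For the genes on which the results turn, stretches before or at their RefSeq starts are shown, taken from RefSeq on GRCm38.p6, which held a promoter for 26 of the 31 collagen genes. Col1a2 is shown because it was the collagen that differed between genotypes in iWAT. Col18a1 is shown because it made up most of the collagen of liver and differed in iBAT. The shared start of Col4a1 and Col4a2 is shown because the ratio of these chains did not overlap between genotypes in liver. That ratio was chosen after the values were seen. Capitals mark GGGCGG, the GC box, and CCAAT, on either strand. The Col1a2 stretch is chr6:4505370-4505492 on the plus strand and ends 126 bases before the RefSeq start. In the authors' table the Col1a2 gene model begins further upstream, at 4504814, so that the stretch lies within it. The Col18a1 stretch is chr10:77166549-77166780, read from the minus strand, and ends 19 bases before the first of its RefSeq starts. The last is chr8:11312805-11312826 on the plus strand, the 22 bases by which the gene models of Col4a1, on the minus strand, and Col4a2, on the plus strand, overlap head to head.
Col1a2: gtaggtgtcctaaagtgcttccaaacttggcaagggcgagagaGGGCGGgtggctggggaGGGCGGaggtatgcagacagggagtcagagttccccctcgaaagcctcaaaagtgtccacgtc
Col18a1: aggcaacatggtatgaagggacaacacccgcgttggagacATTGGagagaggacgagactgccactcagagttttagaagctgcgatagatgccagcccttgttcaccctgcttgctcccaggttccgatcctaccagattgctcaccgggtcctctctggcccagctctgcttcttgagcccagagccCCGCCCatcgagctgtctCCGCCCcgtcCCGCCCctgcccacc
Col4a1 and Col4a2 shared start: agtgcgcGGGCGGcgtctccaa
Col1a2 had 2 GC boxes in its stretch and no CCAAT, and Col18a1 had 3 GC boxes and 1 CCAAT. In the 250 bases before the start, 17 of 28 promoters of the collagen genes held GGGCGG on either strand, against 32.7% of 32851 promoters in the table. CCAAT stood in 10 of the 28, against 33.8% of all promoters, and TATAAA in 4, against 12.4%. These are matches of letters, not sites of binding. Col18a1 has a further RefSeq start 52.8 kb downstream, and its value sums over both starts.

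iWAT held by far the most collagen RNA. The 31 genes summed to 3982 ± 925 TPM in LFABP-/- iWAT and 5600 ± 1467 in WT iWAT, to 385 ± 65 in LFABP-/- iBAT and 404 ± 122 in WT iBAT, and to 485 ± 44 in LFABP-/- livers and 559 ± 26 in WT livers (SD, n = 5 each). Over all 10 mice, 30 of the 31 genes had a mean of at least 1 in iWAT, 21 in iBAT and 16 in liver. Of the 15561 genes of the whole table that reach this level in any tissue, 14668 did so in iWAT, 11614 in iBAT and 11629 in liver. At a mean of at least 100 there were 12 in iWAT, only Col4a1 and Col4a2 in iBAT, and only Col18a1 in liver. Col7a1, the anchoring fibril of skin, was the gene that reached the limit in iBAT alone. Col6a4 was listed at 0 in every iBAT and liver library, and Col17a1 in every liver library.

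**Figure D1:**
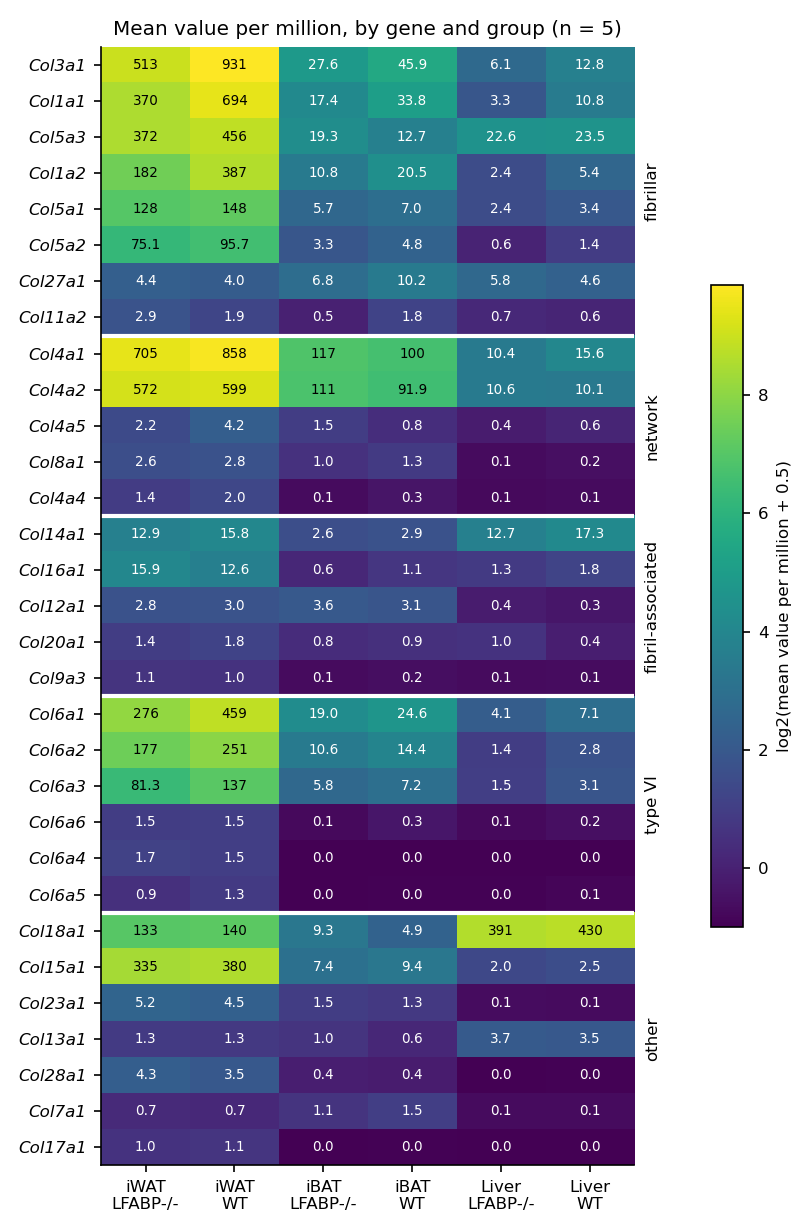
Each cell gives the mean value (TPM) of a collagen gene (rows, by class) in a group of 5 libraries (columns), and the color is the log2 of that mean plus 0.5. By the mean of both genotypes, all genes are highest in iWAT but Col27a1, Col12a1 and Col7a1 (iBAT) and Col14a1, Col13a1 and Col18a1 (liver), Col4a1 and Col4a2 lead in iBAT with means from 91.9 to 117, and Col18a1 alone is bright in liver, with 391 in LFABP-/- and 430.5 in WT livers.

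The classes took different shares of the collagen RNA in each tissue. Fibrillar collagens held 41.2% ± 4.7 of it in LFABP-/- and 48.4% ± 4.4 in WT iWAT, and network collagens 32.5% ± 3.5 in LFABP-/- and 26.1% ± 2.6 in WT iWAT. In iBAT the basement membrane sheet came first: network collagens held 59.4% ± 2.7 in LFABP-/- and 50.3% ± 10.6 in WT iBAT, and fibrillar collagens 23.7% ± 1.4 in LFABP-/- and 31.4% ± 10.7 in WT iBAT. In liver the class of others held 81.8% ± 1.1 in LFABP-/- and 78.4% ± 9.9 in WT livers, nearly all of it Col18a1. Fibril-associated collagens stayed under 4% of the collagen RNA in every group, by the group means, and reached their highest share in liver, where Col14a1 had the highest mean after Col18a1 and Col5a3. The shares are levels, and no test was run on them.

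**Figure D2:**
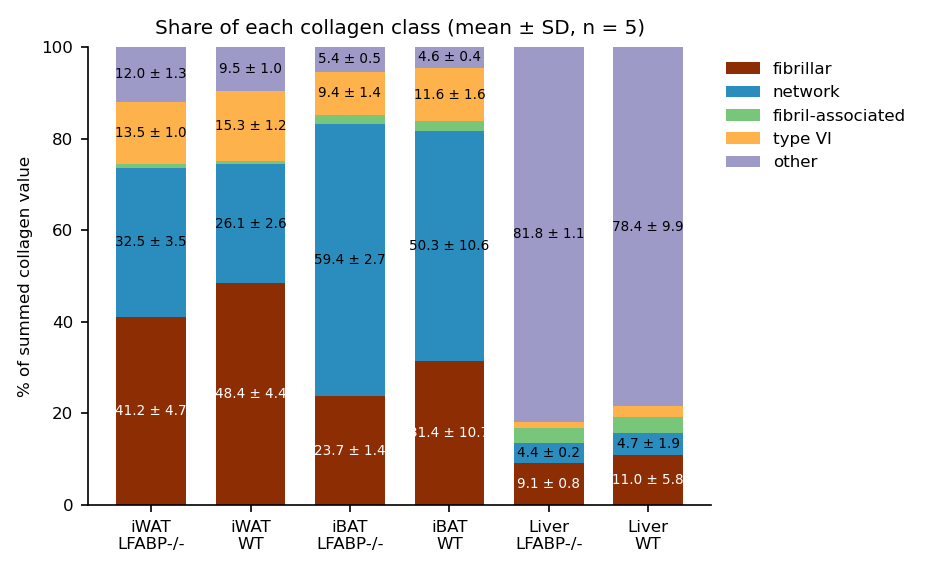
Stacked bars give the mean share, in % of the summed collagen value, of 5 collagen classes in each of the 6 groups, with the mean ± SD over 5 libraries written where a share is above 4%. Network collagens lead in iBAT (59.4% in LFABP-/-, 50.3% in WT), fibrillar collagens lead in iWAT (41.2% in LFABP-/-, 48.4% in WT), and the other class, mostly Col18a1, leads in liver.

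Tissues were compared with limma over the 30 libraries together, with a block for the mouse, and calls were made below an adjusted p of 0.1. Of 24 collagen genes with a mean of at least 1 over all libraries, 22 were higher and 1, Col27a1, lower in iWAT than in iBAT. A gene can pass that limit through iWAT alone, which favors calls as higher in iWAT, here and against liver. Col16a1, Col20a1 and Col28a1 had means of 0.89, 0.85 and 0.41 in iBAT and passed it through iWAT. The calls between iWAT and iBAT stand beside 93.2% of all 13925 genes called in that comparison, 85.5% as higher and 7.68% as lower. The median log2 difference of the collagen genes was 3.09, against 1.38 over all genes tested. With the libraries scaled by the median ratio of genes, all genes had a median of 0.06 with 43.8% called higher, 17 collagen genes remained called as higher and 4 as lower, and Col11a2, Col8a1, Col20a1 and Col13a1 changed sign.

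Against liver, iWAT had 20 collagen genes higher and 2 lower, Col13a1 and Col18a1, beside 94.8% of all genes called (80.8% higher, 14% lower). Their median difference was 3.57, against 1.26 over all genes. Under the scaling by median ratio, which put the median of all genes at 0.02 and 43.8% of them as higher, 18 collagen genes were higher and 4 lower in iWAT, and Col20a1 changed sign. iBAT had 17 collagen genes higher and 5 lower than liver, beside 80.8% of all genes called (38.1% higher, 42.7% lower). The 5 that were lower were Col5a3, Col14a1, Col16a1, Col13a1 and Col18a1. Among the 17 was Col28a1, with means of 0.41 in iBAT and 0.01 in liver, and nothing is read from its call. Scaled by the median ratio, 19 were higher and 5 lower, and 43.1% of all genes were higher.

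Among the 24 chains, Col15a1 had the largest difference of iWAT from both other tissues. It was 5.29 ± 0.16 higher on the log2 scale in iWAT than in iBAT and 7.00 ± 0.16 higher in iWAT than in liver (estimate ± SE, adjusted p = 3.3e-21 and 1.2e-24). The type I and type III chains lay 4.21 to 4.52 above iBAT and 6.13 to 6.54 above liver in iWAT, and Col6a1, Col6a2 and Col6a3 lay 3.93 to 4.01 above iBAT. The basement membrane chains Col4a1 and Col4a2 differed less between the fat depots, by 2.82 ± 0.17 and 2.50 ± 0.16. Col18a1 was the exception in liver: it was 1.62 ± 0.15 lower in iWAT than in liver and 5.86 ± 0.15 lower in iBAT than in liver. Col13a1, a collagen that spans the cell membrane, was also lower in fat, by 1.18 ± 0.11 in iWAT and 1.62 ± 0.11 in iBAT relative to liver. Col14a1, a fibril-associated collagen, was 2.29 ± 0.19 lower in iBAT than in liver, and its difference between iWAT and liver was -0.10 ± 0.19 (adjusted p = 0.61). Col27a1, a minor fibrillar collagen best known from cartilage, was 0.97 ± 0.21 lower in iWAT than in iBAT.

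Genotypes were then compared in each tissue by limma on log2(value + 0.5) over genes with a mean of at least 1. In iWAT, Col1a2 was lower in LFABP-/- mice and was the only 1 of 30 collagen genes tested that was called, beside 1.45% of all 14668 genes (0.682% higher, 0.770% lower). Differences were below 0 for 19 of the 30 genes, with a median of -0.16 against 0.05 over all genes tested, and 6 had an unadjusted p under 0.05. The 6 lowest differences were those of Col1a2, Col1a1, Col3a1, Col4a5, Col6a3 and Col6a1, from -1.06 to -0.72.

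Col1a2, the second chain of type I collagen, had 252.8, 155.6, 186.8, 143.8 and 169.3 TPM in LFABP-/- iWAT, against 329.7, 441.5, 561.6, 241.8 and 358.4 in WT iWAT. WT replicate 4 fell among the LFABP-/- libraries, so the groups overlapped. Col1a2 averaged 182 ± 43 in LFABP-/- and 387 ± 121 in WT iWAT, a log2 difference of -1.06 ± 0.23 (SE; adjusted p = 0.079; exact permutation p = 0.0159). The call is near its limit. Col1a2 was still called without LFABP-/- replicate 1, the library with Fabp1 (difference -1.19, adjusted p = 0.080), and without WT replicate 1 (adjusted p = 0.086) or 4 (adjusted p = 0.042). It was not called without any 1 of LFABP-/- replicates 2, 3, 4 and 5 or WT replicates 2, 3 and 5, with an adjusted p of 0.15 to 0.22 and log2 differences of -1.08 to -0.91. In 1 fit of all 30 libraries it was not called either (adjusted p = 0.12). Over all alternatives run, its difference was -1.21 to -0.85.

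Col1a1, the first chain of type I, had 512.4, 277.0, 382.6, 297.1 and 379.3 in LFABP-/- iWAT, against 620.9, 770.4, 1055.9, 412.1 and 609.7 in WT iWAT. Its log2 difference was -0.87 ± 0.25 and did not pass the test (adjusted p = 0.19; exact permutation p = 0.0159). Again WT replicate 4, which held the most lymphocyte markers, was the lowest WT library. Col3a1, the chain of type III, had 823.1, 395.4, 457.9, 356.5 and 530.7 in LFABP-/- iWAT, against 956.7, 1113.2, 1222.4, 522.1 and 841.2 in WT iWAT (log2 difference -0.87 ± 0.27, adjusted p = 0.24). The type V chains Col5a1, Col5a2 and Col5a3 had differences of -0.33 to -0.20, Col27a1 of 0.12 and Col11a2 of 0.53, with adjusted p of 0.81 to 0.97.

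Col6a1, Col6a2 and Col6a3, the main chains of the type VI filament, were also lower in value. Col6a1 had 334.7, 186.7, 276.8, 249.6 and 334.7 in LFABP-/- iWAT, against 609.2, 505.6, 499.2, 302.3 and 380.6 in WT iWAT, a log2 difference of -0.72 ± 0.22 (adjusted p = 0.22). Col6a2 had 240.7, 118.6, 166.1, 149.7 and 208.5 in LFABP-/- iWAT, against 341.9, 273.2, 265.9, 158.4 and 216.6 in WT iWAT (-0.50 ± 0.24, adjusted p = 0.51). Col6a3, named here after its values were seen, had a difference of -0.76 ± 0.20 (adjusted p = 0.16; 81.3 ± 19.3 in LFABP-/- and 137 ± 26 in WT iWAT). None of the 6 type VI chains passed the test.

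Basement membrane chains behaved unlike each other. Col4a1 had 821.6, 527.2, 583.7, 729.0 and 864.2 in LFABP-/- iWAT, against 1105.1, 1027.1, 918.0, 521.4 and 718.5 in WT iWAT (log2 difference -0.26 ± 0.22, adjusted p = 0.86). Col4a2 had 625.5, 409.0, 478.0, 605.7 and 742.3 in LFABP-/- iWAT, against 891.6, 688.7, 600.6, 353.3 and 461.1 in WT iWAT (-0.03 ± 0.25, adjusted p = 0.99). The groups overlapped widely for both. Col4a5, a minor type IV chain, had 1.9, 2.0, 2.1, 2.0 and 3.2 in LFABP-/- iWAT, against 4.9, 5.3, 5.1, 3.0 and 2.8 in WT iWAT, a log2 difference of -0.76 ± 0.22 (adjusted p = 0.19). In 1 fit of all 30 libraries Col4a5 was called lower in iWAT (adjusted p = 0.019), beside 5.78% of all genes.

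The proteoglycan cores and fibril-associated chains did not pass the test in iWAT. Col15a1 had 410.4, 213.7, 272.5, 301.3 and 474.8 in LFABP-/- iWAT, against 521.2, 438.6, 348.9, 218.4 and 371.7 in WT iWAT. Col18a1 had 145.2, 85.9, 126.1, 140.6 and 165.6 in LFABP-/- iWAT, against 169.8, 160.3, 167.9, 89.5 and 114.9 in WT iWAT. Their log2 differences were -0.18 ± 0.27 and -0.07 ± 0.22, so the spread between mice was larger than the difference. Col14a1 had 6.8, 7.8, 17, 12.9 and 19.9 in LFABP-/- iWAT, against 21.9, 12.7, 16.1, 16.9 and 11.6 in WT iWAT. Col16a1 had 15.3, 7.9, 15.9, 25.7 and 14.9 in LFABP-/- iWAT, against 23.1, 8.8, 13.1, 11.5 and 6.3 in WT iWAT, with overlapping groups in both genes. The remaining chains tested in iWAT (Col4a4, Col8a1, Col9a3, Col12a1, Col13a1, Col17a1, Col20a1, Col23a1, Col28a1 and Col6a4 to Col6a6) had means of 0.92 to 5.18 in either genotype and differences of -0.33 to 0.48.

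**Figure D3:**
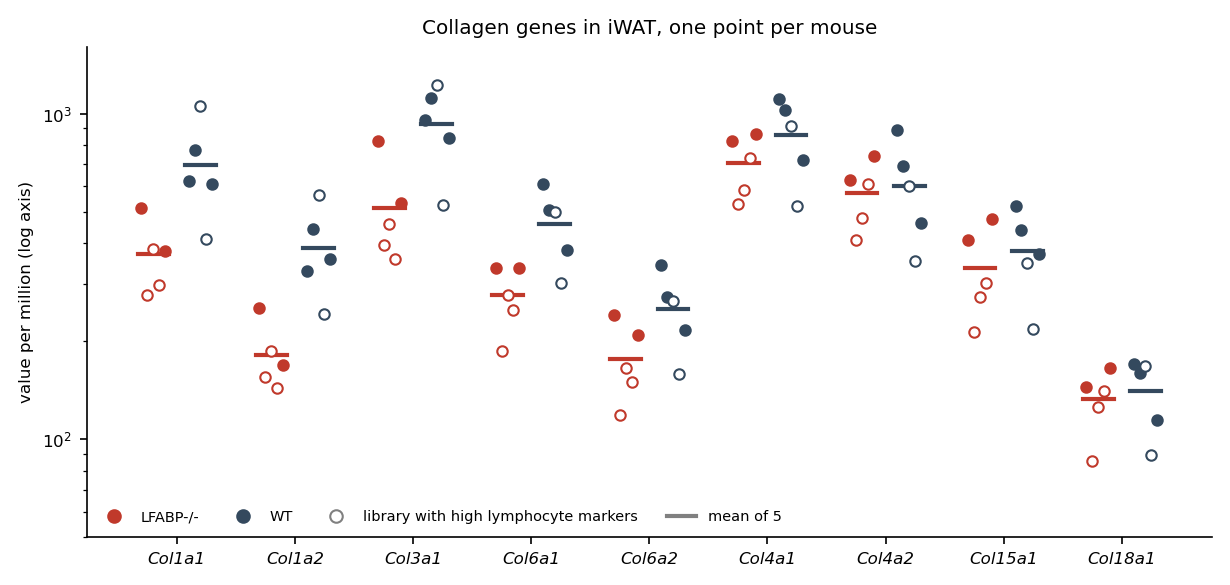
Each point is the value (TPM, log axis) of a collagen gene in the iWAT of 1 mouse, LFABP-/- left of WT for each gene, open where lymphocyte markers were high, and bars are means of 5. For Col1a2 the LFABP-/- mice lie between 143.8 and 252.8 and the WT mice between 241.8 and 561.6, while for Col4a2 and Col18a1 the groups overlap widely.

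Markers of other cells moved with some of these values in iWAT. In the 5 libraries with high lymphocyte markers, Col6a4 was at 2.1, 3.4 and 3.1 in LFABP-/- and 1.7 and 5.8 in WT iWAT, and it was listed at 0 in the other iWAT libraries of both genotypes. Col6a5 followed it, with 1.1 to 2.1 in LFABP-/- and 2.0 and 3.7 in WT iWAT, against at most 0.3 elsewhere, and so did Col11a2, with 3.4 to 5.2 in LFABP-/- and 1.7 and 6.0 in WT iWAT, against 0.5 to 0.7 elsewhere. Of the 19 lymphocyte markers 16 were tested, none was called between genotypes, and Ighm, Ighd and Trac were listed at 0 in every iWAT library. The marker sum was 49.8 to 2312.3 in LFABP-/- and 26.7 to 2990.1 in WT iWAT. Without those 5 libraries, which left 2 LFABP-/- and 3 WT mice, no collagen gene was called by limma (5 with an unadjusted p under 0.05) and Col1a2 had a difference of -0.85 (adjusted p = 0.31), beside 0.0432% of all genes called. Of the 2 LFABP-/- libraries left, 1 was replicate 1, whose Fabp1 does not match its label. With the marker mean as a covariate, 6 were called, all lower (Col1a1, Col1a2, Col3a1, Col4a5, Col6a1 and Col6a3), beside 8.68% of all genes. Without WT replicate 4 alone, 5 were called lower (Col1a1, Col1a2, Col3a1, Col6a1 and Col6a3), beside 1.92% of all genes. The sum of 10 fibroblast and progenitor markers was 10782.7 to 16467.2 in LFABP-/- and 12176.3 to 19872.9 in WT iWAT, and all 10 had differences below 0, of which 1 was called. Col17a1, which anchors skin cells, was highest where epithelial markers were, at 2.5 in LFABP-/- replicate 3 and 3.4 in WT replicate 1, against 0.2 to 1.1 in the other iWAT libraries. Macrophage markers summed to 1536.8 to 2306.1 in LFABP-/- and 1755.5 to 3623.0 in WT iWAT, with all 12 below 0 in difference, 1 of them called, and none listed at 0 throughout. Brown adipocyte markers lay above 0 in difference for all 7 tested and skeletal muscle markers for all 23 tested, with median log2 differences of 1.185 and 1.498, but none was called by limma (1 and 0 with an unadjusted p under 0.05). The skeletal muscle sum was 188.0 to 6737.2 in LFABP-/- and 143.3 to 1030.9 in WT iWAT, and no marker of either list was listed at 0 throughout a group. With skeletal muscle markers as a covariate Col1a2 was not called (-1.001, adjusted p = 0.22). The part of fibroblasts, macrophages and brown adipocytes in the differences of the fibrillar and type VI chains was not tested.

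In iBAT, 6 of 21 collagen genes tested were called between genotypes, 2 higher and 4 lower in LFABP-/- mice, beside 47.8% of all 11614 genes (22.3% higher, 25.5% lower). The median difference of the collagen genes was -0.22, against -0.03 over all genes. Col11a2, Col27a1, Col6a2 and Col7a1 were lower, and Col4a5 and Col18a1 were higher. The share called was below that of all genes. Without the 3 libraries labelled LFABP-/- that held more Fabp1 than WT, which left LFABP-/- replicates 1 and 2, Col6a2 lost its call (-0.32, adjusted p = 0.26), the other 5 kept theirs in the same direction, and Col4a1, Col4a2 and Col5a3 were called higher too, beside 41.7% of all genes. Both libraries left were among the 3 with the most hepatocyte markers.

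Col11a2, a chain of type XI that starts the fibrils of cartilage, had 0.5, 0.5, 0.3, 0.7 and 0.5 in LFABP-/- iBAT, against 1.7, 2.6, 1.2, 1.8 and 1.6 in WT iBAT. The groups did not overlap, which held for this 1 of the 21 collagen genes and for 26.4% of all genes tested. Its log2 difference was -1.17 ± 0.17 (adjusted p = 0.00062; exact permutation p = 0.0079, the smallest possible). Col27a1 had 6.5, 3.6, 8.7, 8.8 and 6.5 in LFABP-/- iBAT, against 12.0, 12.5, 10.6, 8.9 and 6.9 in WT iBAT (-0.57 ± 0.23, adjusted p = 0.076). Its groups overlapped at WT replicate 5, and it lost the call without any 1 of LFABP-/- replicates 1, 2 and 5 or WT replicates 1, 2 and 3 (adjusted p of 0.11 to 0.15).

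Col6a2 had 10.3, 12.2, 10.6, 9.1 and 10.8 in LFABP-/- iBAT, against 11.7, 12.1, 19.9, 15.0 and 13.4 in WT iBAT, a log2 difference of -0.41 ± 0.14 (adjusted p = 0.038). Only LFABP-/- replicate 2 lay within the WT range. Col6a1, its partner in the type VI filament, had 19.6, 23.4, 17.5, 17.4 and 17.3 in LFABP-/- iBAT, against 19.3, 20.9, 36.7, 24.5 and 21.5 in WT iBAT, which did not pass the test (-0.33 ± 0.16, adjusted p = 0.14). Col7a1 had 0.9, 0.9, 1.2, 0.9 and 1.4 in LFABP-/- iBAT, against 1.1, 1.8, 1.3, 1.6 and 1.9 in WT iBAT (-0.38 ± 0.14, adjusted p = 0.057). Values in the table are rounded to 1 decimal, which is coarse at this level, and without any 1 of LFABP-/- replicates 1, 2 and 4 or WT replicates 2, 4 and 5 Col7a1 was not called (adjusted p of 0.11 to 0.12).

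Col4a5 went the other way from iWAT. It had 1.3, 1.7, 1.6, 1.1 and 1.6 in LFABP-/- iBAT, against 0.9, 0.6, 0.9, 1.3 and 0.5 in WT iBAT, a log2 difference of 0.57 ± 0.17 (adjusted p = 0.022; exact permutation p = 0.0238). The major basement membrane chains were higher in value without passing the test: Col4a1 had 157.7, 122.0, 107.0, 111.1 and 86.1 in LFABP-/- iBAT, against 110.9, 113.6, 103.2, 93.6 and 80.0 in WT iBAT (0.20 ± 0.15, adjusted p = 0.32). Col4a2 had 135.7, 114.5, 108.8, 114.7 and 79.2 in LFABP-/- iBAT, against 103.5, 106.4, 92.8, 86.9 and 69.8 in WT iBAT (0.26 ± 0.15, adjusted p = 0.20). In both genes the groups overlapped. Both were called higher with the prefix of the library names as a term (adjusted p = 0.048 for Col4a1 and 0.046 for Col4a2) and without the 3 libraries labelled LFABP-/- that held Fabp1 (0.059 and 0.079), and Col4a2 also without LFABP-/- replicate 5 (0.038).

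Col18a1 had 12.0, 10.9, 11.1, 8.0 and 4.7 in LFABP-/- iBAT, against 5.7, 4.3, 6.6, 3.8 and 3.9 in WT iBAT, a log2 difference of 0.84 ± 0.25 (adjusted p = 0.021; exact permutation p = 0.0238). The 3 highest libraries were those with the most hepatocyte markers. All 10 hepatocyte markers were tested in iBAT, 9 were called higher in LFABP-/- mice, none was listed at 0 throughout a group, and their sum was 183.4 to 1768.8 in LFABP-/- and 53.1 to 207.5 in WT iBAT. Without LFABP-/- replicates 1, 2 and 3 Col18a1 had a difference of 0.34 (adjusted p = 0.42) and only Col11a2 was called (-1.03), beside 24.8% of all genes. Col4a5 fell under the level limit in the libraries left and was not tested there. Col6a2 was then at -0.49, no smaller than with all libraries, and Col27a1 at -0.38 and Col7a1 at -0.31. With the hepatocyte markers as a covariate no collagen gene was called by limma (1 with an unadjusted p under 0.05), beside 6.76% of all genes, and Col18a1 had a difference of 0.22, Col11a2 of -0.91, Col4a5 of 0.47, Col6a2 of -0.40, Col7a1 of -0.25 and Col27a1 of -0.02. Col18a1 was higher by 1.18 (adjusted p = 0.0070) without the 3 libraries that held Fabp1. These alternatives were chosen after seeing the data, and the part of hepatocyte RNA in the Col18a1 difference was not tested.

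The type I and type III chains rested on 1 library in iBAT. Col1a1 had 19.4, 22.7, 16, 14.9 and 14.2 in LFABP-/- iBAT, against 16.1, 19.8, 97.3, 16.1 and 19.8 in WT iBAT. Col1a2 had 11.5, 14.2, 9.5, 8.8 and 9.8 in LFABP-/- iBAT, against 10.3, 13.4, 51.1, 12.7 and 14.9 in WT iBAT. Col3a1 had 29.8, 36.7, 24.7, 24.6 and 22.4 in LFABP-/- iBAT, against 26.7, 35.2, 107.3, 29.9 and 30.5 in WT iBAT. WT replicate 3 was far above all others in each, and it also had the highest sum of cartilage and tendon markers (69.0, against 1.5 to 14.4 in the other iBAT libraries). Fibroblast and progenitor markers summed to 382.4 to 431.1 in LFABP-/- and 559.5 to 864.3 in WT iBAT, without overlap, and 4 of the 9 tested were called lower, with none of the 10 listed at 0 throughout. Markers of pericytes and smooth muscle did likewise, with sums of 134.7 to 155.8 in LFABP-/- and 177.6 to 212.8 in WT iBAT and 7 of 10 called lower. These counts of called markers and those that follow stand beside 25.5% of all genes called lower in iBAT. For 26.4% of all genes tested there the groups did not overlap. All 25 skeletal muscle markers were below 0 in difference (median -1.19), 1 of them called lower, with sums of 373.3 to 22008.6 in LFABP-/- and 2024.1 to 50467.1 in WT iBAT. With them as a covariate Col7a1 lost its call (-0.28, adjusted p = 0.12). Of endothelial markers 4 of 10 tested were called lower, with sums of 172.9 to 278.6 in LFABP-/- and 218.8 to 307.5 in WT iBAT, and of Schwann cell markers 4 of 6, with sums of 107.1 to 187.9 in LFABP-/- and 148.8 to 214.1 in WT iBAT. None of these was listed at 0 throughout a group. The part of these cells in the lower collagen values was not tested. Col15a1 had 8.2, 7.8, 7.4, 7.0 and 6.8 in LFABP-/- iBAT, against 8.3, 8.6, 13.7, 8.4 and 8.0 in WT iBAT, with only WT replicate 5 inside the LFABP-/- range (log2 difference -0.29 ± 0.14, adjusted p = 0.11). Col14a1 had 2.1, 3.2, 2.5, 1.5 and 3.6 in LFABP-/- iBAT, against 1.9, 1.5, 3.1, 2.9 and 4.9 in WT iBAT, with widely overlapping groups. The other chains tested in iBAT (Col5a1, Col5a2, Col5a3, Col6a3, Col8a1, Col12a1 and Col23a1) had differences of -0.41 to 0.56 and did not pass the test.

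In liver, no collagen gene of 16 tested was called by limma between genotypes, beside 16.9% of all 11629 genes (3.08% higher, 13.9% lower). An unadjusted p under 0.05 was found for 3, Col14a1, Col6a2 and Col6a3, all lower in value in LFABP-/- livers. Differences were below 0 for 13 of the 16, with a median of -0.36, against -0.10 over all genes, and scaling by the median ratio of genes moved log2 differences in liver by that 0.10.

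Col18a1 had 413.6, 440.0, 403.7, 351.2 and 348.0 in LFABP-/- livers, against 458.7, 443.3, 439.9, 448.9 and 361.7 in WT livers. Its groups overlapped, with WT replicate 5 in the lower part of the LFABP-/- range, and its log2 difference was -0.14 ± 0.10 (adjusted p = 0.37). Col14a1 had 12.4, 12.8, 13.7, 12.3 and 12.3 in LFABP-/- livers, against 12.7, 17.4, 16.3, 13.8 and 26.1 in WT livers (-0.38 ± 0.16, adjusted p = 0.15). The LFABP-/- livers lay close together and WT livers spread upwards from the same level.

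Col1a1, Col1a2, Col3a1, Col6a1 and Col6a2, which are scarce in liver, also spread more among WT than among LFABP-/- livers. Col1a1 had 3.6, 2.9, 2.9, 4.4 and 2.7 in LFABP-/- livers, against 2.3, 9.2, 4.7, 4.1 and 33.9 in WT livers. Col1a2 had 2.4, 2.3, 2.1, 3.2 and 2.1 in LFABP-/- livers, against 1.9, 4.5, 3.5, 2.7 and 14.5 in WT livers. Col3a1 had 6.3, 6.0, 5.7, 7.2 and 5.5 in LFABP-/- livers, against 3.6, 10.1, 6.8, 5.8 and 37.6 in WT livers. In all of them WT replicate 5 was the highest and WT replicate 1 the lowest liver. Col6a1 had 4.0, 4.3, 4.3, 4.3 and 3.6 in LFABP-/- livers, against 3.3, 6.7, 6.1, 4.9 and 14.6 in WT livers, and Col6a2 had 1.4, 1.2, 1.6, 1.5 and 1.5 in LFABP-/- livers, against 1.3, 2.6, 2.2, 1.9 and 6.1 in WT livers. Without WT replicate 1, Col14a1, Col6a1, Col6a2 and Col6a3 were called lower (adjusted p of 0.082 to 0.085 for Col14a1, Col6a1 and Col6a2), beside 15.5% of all genes called. Without WT replicate 4, Col27a1 was called higher (difference 0.54, adjusted p = 0.081): it had 6.0, 4.9, 7.4, 4.9 and 5.7 in LFABP-/- livers, against 4.5, 3.4, 5.0, 7.7 and 2.6 in WT livers. Of 12 macrophage markers 11 were tested in liver and 1 was called lower, and their sum was 258.6 to 408.9 in LFABP-/- and 274.0 to 1081.1 in WT livers. Of 10 stellate cell markers 9 were tested, 7 were below 0 in difference and 1 was called lower, none was listed at 0 throughout, and their sum was 213.2 to 234.1 in LFABP-/- livers, against 309.0 in WT replicate 5 and 173.2 to 224.8 in the other WT livers. The part of stellate cells and macrophages in the collagen values of liver was not tested.

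The basement membrane chains parted in liver. Col4a1 had 11.8, 11.5, 10.3, 9.6 and 8.7 in LFABP-/- livers, against 9.5, 19.3, 11.8, 9.5 and 28.1 in WT livers (log2 difference -0.45 ± 0.27, adjusted p = 0.30). Col4a2 had 11.9, 11.6, 10.7, 9.5 and 9.4 in LFABP-/- livers, against 6.4, 11.8, 9.5, 6.8 and 15.8 in WT livers (0.14 ± 0.21, adjusted p = 0.69). Neither passed the test. Their ratio, chosen after the values were seen, did not overlap between genotypes, as described further on. Of the rest, Col15a1 had 1.6, 1.5, 2.3, 2.4 and 2.4 in LFABP-/- livers, against 2.9, 1.9, 3.4, 1.3 and 2.8 in WT livers, and Col16a1 had 1.1, 1.2, 1.4, 1.6 and 1.2 in LFABP-/- livers, against 1.1, 1.7, 1.4, 1.4 and 3.5 in WT livers. Col5a1, Col5a3 and Col13a1 had differences of -0.33 to 0.10. Chains under a mean of 1 in liver were not tested there: Col11a2 was at 0.4 to 0.9 in LFABP-/- and 0.5 to 0.7 in WT livers, Col4a5 at 0.3 to 0.5 in LFABP-/- and 0.4 to 1.1 in WT livers, and Col7a1 at 0.1 to 0.2 in both. Col20a1 was also under that level, with 0.8, 0.8, 1.4, 1.1 and 1.0 in LFABP-/- livers, against 0.5, 0.3, 0.5, 0.6 and 0.3 in WT livers. Its groups did not overlap, as was the case for 1167 of 11629 genes tested in liver and for none of the 16 collagen genes tested (exact permutation p = 0.0079, unadjusted).

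**Figure D4:**
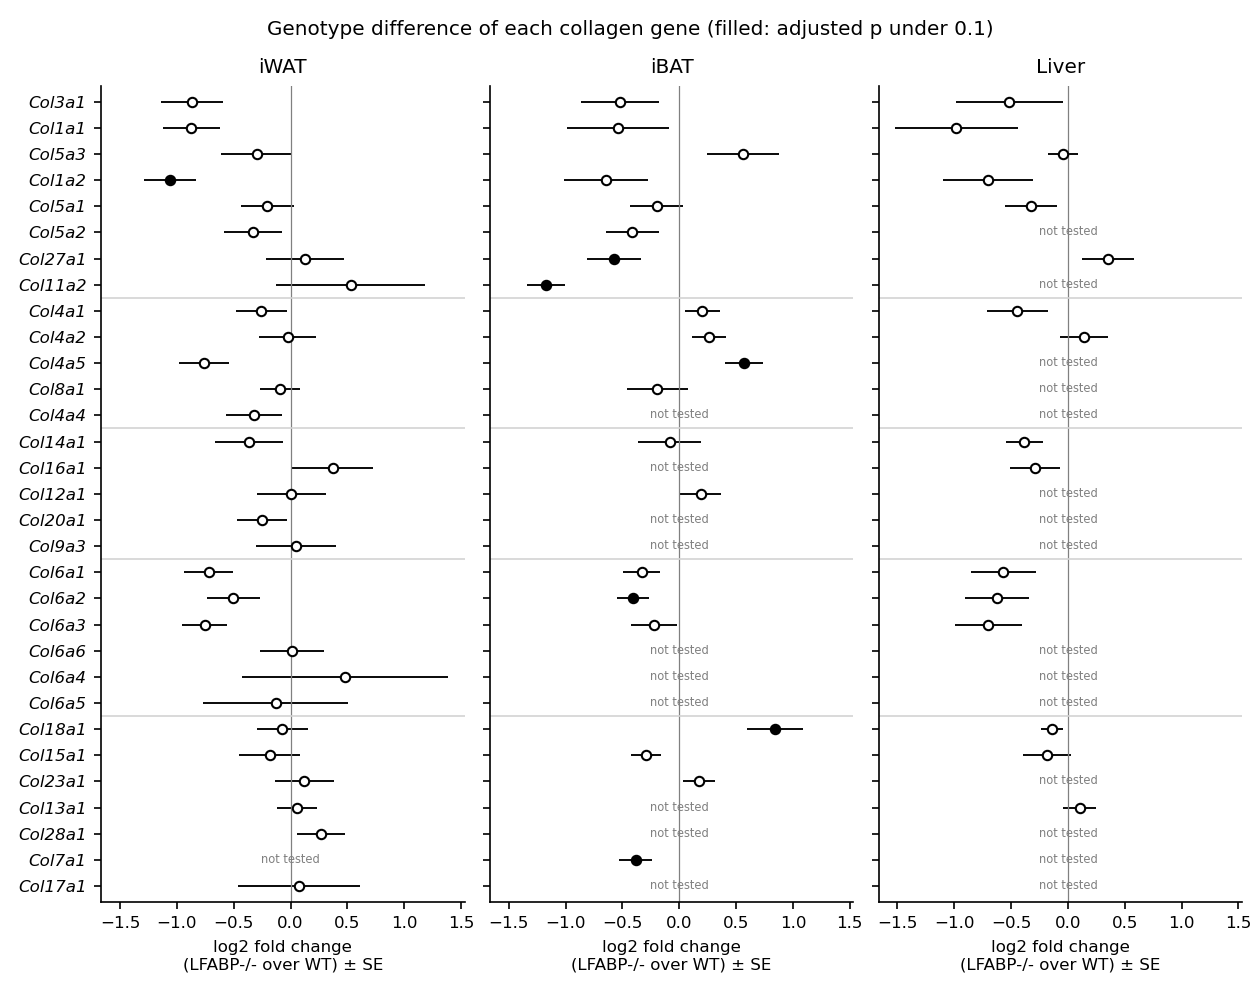
Points give the log2 fold change, LFABP-/- over WT, of each collagen gene in iWAT, iBAT and liver, with bars of ± 1 SE, and filled points had an adjusted p under 0.1. In iWAT only Col1a2 (-1.06) is filled, in iBAT Col27a1, Col11a2, Col6a2 and Col7a1 are filled below 0 and Col4a5 and Col18a1 above it, and in liver no point is filled.

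Whether the genotype difference itself differed between tissues was tested as an interaction in the fit of all 30 libraries. Between iWAT and iBAT, 3 of 24 collagen genes were called, 1 above and 2 below 0, beside 11.9% of all 13925 genes (6.48% above, 5.39% below). Col4a5 had the lowest adjusted p of the 3, with a genotype difference in iWAT minus iBAT of -1.33 ± 0.27 (adjusted p = 0.0029): it was lower in value in LFABP-/- iWAT and higher in LFABP-/- iBAT. Col4a5 was called under every alternative run for this interaction, with differences of -1.64 to -1.10 and adjusted p of 0.0014 to 0.036. None of these took hepatocyte markers as a covariate or left out together the 3 iBAT libraries with the most of them. Within iBAT, Col4a5 was not called by limma with that covariate (0.47, adjusted p = 0.45). Col18a1 had a difference of -0.91 ± 0.30 (adjusted p = 0.062) and Col11a2 of 1.70 ± 0.60 (adjusted p = 0.081). Col18a1 was not called without any 1 of LFABP-/- mice 1, 2 and 3 or WT mice 1 and 2 (adjusted p of 0.11 to 0.22), nor was Col11a2 without LFABP-/- mice 2, 3 and 4 or WT mice 1, 2, 3 and 5, each left out alone (0.12 to 0.25).

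Between iBAT and liver, 3 collagen genes were called, 2 above and 1 below 0, beside 16.7% of all genes (11.5% above, 5.21% below). Col4a5 had a genotype difference in iBAT minus liver of 0.86 ± 0.27 (adjusted p = 0.034) and Col18a1 of 0.98 ± 0.30 (adjusted p = 0.031). Col4a5 had a mean of 0.49 in liver, where it was not tested, and passed the level limit of this fit through iWAT. Nothing is read from its call between iBAT and liver. The call below 0 was Col20a1, a fibril-associated chain, but its mean was under 1 in both of these tissues and it entered the fit through its level in iWAT, so nothing is read from that call. Between iWAT and liver only Col20a1, which is under a mean of 1 in liver, was called, with -0.94 ± 0.25 (adjusted p = 0.049), beside 3.60% of all genes (2.63% above, 0.969% below). It had 1.2, 1.6, 1.6, 2.0 and 0.8 in LFABP-/- iWAT, against 1.4, 1.7, 1.8, 2.4 and 1.6 in WT iWAT, and 0.7, 0.7, 1.1, 0.9 and 0.6 in LFABP-/- iBAT, against 0.9, 1.2, 1.1, 0.5 and 0.8 in WT iBAT. In fat the groups of Col20a1 overlapped. Without any 1 of LFABP-/- mice 3 and 5 or WT mice 2 and 5 the call between iWAT and liver was lost (adjusted p of 0.11 to 0.17). Without the 4 fat libraries labelled LFABP-/- that held more Fabp1 than WT, Col4a5, Col18a1 and Col11a2 were still called between iWAT and iBAT, with Col27a1 and Col5a3 added, and Col4a5 and Col18a1 between iBAT and liver. The LFABP-/- iBAT libraries left in were replicates 1 and 2, both among the 3 with the most hepatocyte markers. The part of hepatocyte RNA in the Col4a5 and Col18a1 interactions was not tested. The 3 interactions share libraries and are not independent of each other.

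Ratios of chains within a library do not depend on how the library was scaled. Ratios of 5 pairs of chains were computed in the 3 tissues, 15 comparisons in all, and compared by 2-sided exact permutation tests. The pairs were chosen after the values of the genes were seen, and the adjustment over the 15 comparisons does not cover that choice. How often ratios of other gene pairs separate the genotypes was not computed. Among single genes tested, the groups did not overlap for 1167 of 11629 in liver and 456 of 14668 in iWAT. In liver, Col4a1 over Col4a2 was 0.992, 0.991, 0.963, 1.01 and 0.926 in LFABP-/- mice, against 1.48, 1.64, 1.24, 1.40 and 1.78 in WT mice. The groups did not overlap, and the means were 0.976 ± 0.033 in LFABP-/- and 1.51 ± 0.21 in WT livers (exact p = 0.0079, the smallest possible, adjusted over the 15 comparisons 0.040). In iWAT the same ratio was 1.24 ± 0.06 in LFABP-/- and 1.46 ± 0.13 in WT mice (exact p = 0.024, adjusted 0.060), and in iBAT 1.05 ± 0.08 in LFABP-/- and 1.09 ± 0.03 in WT mice (exact p = 0.33). The gene models of these chains share 22 bases at their starts, shown above, and how the authors' counting treated strand is not given in the sources used here.

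Col6a1 over Col6a2 in iWAT was 1.39, 1.57, 1.67, 1.67 and 1.61 in LFABP-/- mice, against 1.78, 1.85, 1.88, 1.91 and 1.76 in WT mice. The groups did not overlap (1.58 ± 0.11 in LFABP-/- and 1.84 ± 0.06 in WT iWAT, exact p = 0.0079, adjusted 0.040). In liver, Col3a1 over Col1a1 was 1.75, 2.07, 1.97, 1.64 and 2.04 in LFABP-/- mice, against 1.57, 1.10, 1.45, 1.41 and 1.11 in WT mice, again with no overlap (exact p = 0.0079, adjusted 0.040). In iWAT that ratio was 1.37 ± 0.17 in LFABP-/- and 1.36 ± 0.15 in WT mice (exact p = 0.94). Col1a1 over Col1a2 in iWAT was 2.03 ± 0.16 in LFABP-/- and 1.78 ± 0.09 in WT mice (exact p = 0.024, adjusted 0.060). Col1a2 over Col4a1, which sets the fibril against the basement membrane, was 0.263 ± 0.061 in LFABP-/- and 0.461 ± 0.114 in WT iWAT (exact p = 0.024, adjusted 0.060). Only the 3 ratios with no overlap were computed again with each library left out in turn. Their differences were -0.60 to -0.46 for Col4a1 over Col4a2, -0.28 to -0.21 for Col6a1 over Col6a2 and 0.51 to 0.63 for Col3a1 over Col1a1. Groups that do not overlap stay apart when 1 library is left out. The sign and the exact p (0.0079 or 0.0159) were thus fixed in advance, and only the size of the difference could change.

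**Figure D5:**
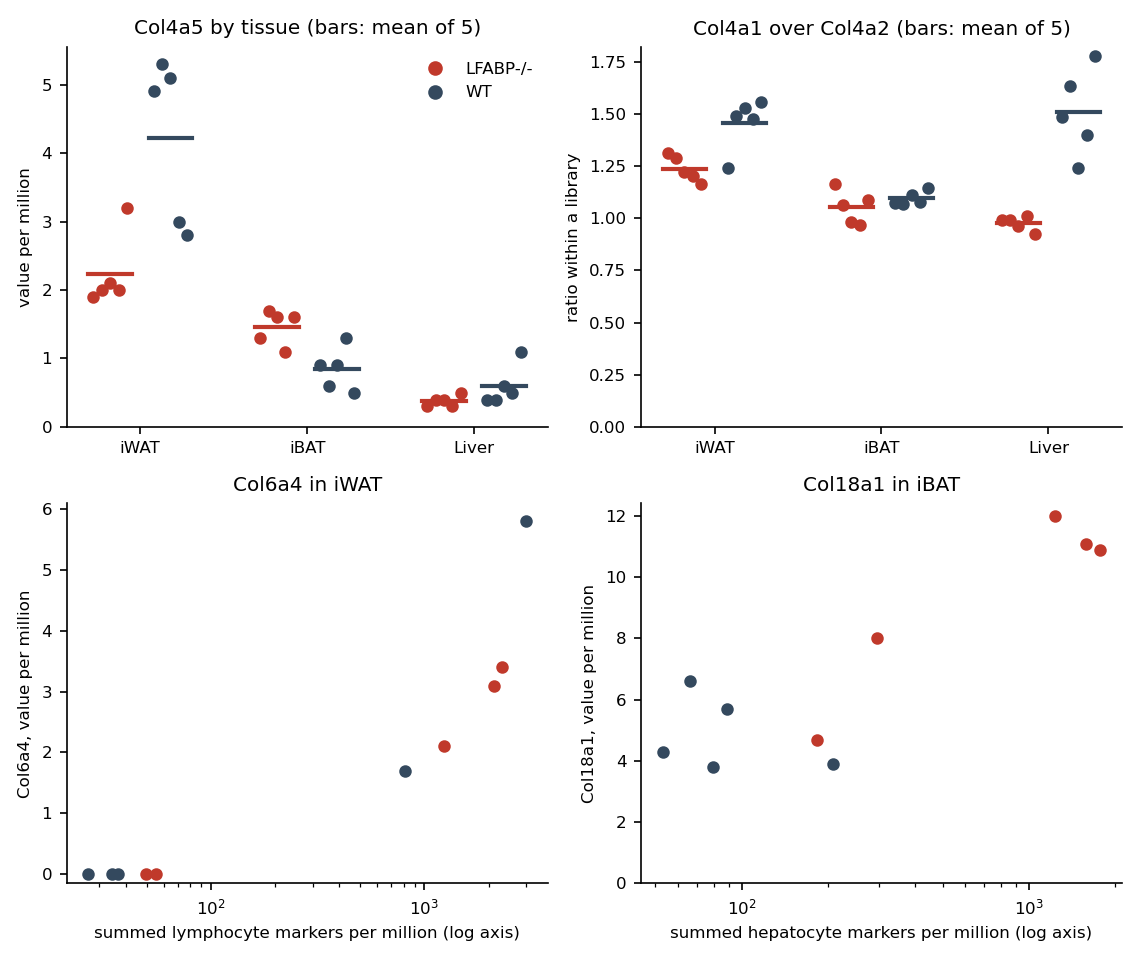
The upper panels show Col4a5 (TPM) and the ratio of Col4a1 to Col4a2 in each mouse by tissue, LFABP-/- left of WT, with bars for means of 5; Col4a5 is lower in value in LFABP-/- iWAT and higher in LFABP-/- iBAT, and the ratio is 0.926 to 1.01 in LFABP-/- livers against 1.24 to 1.78 in WT livers. The lower panels show Col6a4 in iWAT against summed lymphocyte markers and Col18a1 in iBAT against summed hepatocyte markers (log axes), with a point per mouse; Col6a4 is at 0 in the 5 libraries with low lymphocyte markers, and Col18a1 is highest in the 3 with the most hepatocyte markers.

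Genes that make, process and bind collagen were described from 4 lists. In iWAT, where 1.45% of all genes were called, 1 of 18 tested genes of collagen hydroxylation and folding was lower and none higher, none of 12 of procollagen processing and crosslinking was called (3 with an unadjusted p under 0.05), 1 of 9 collagen receptors was higher, and 1 of 9 fibril-binding proteoglycans was lower. P3h3, a partner in prolyl and lysyl modification, averaged 13.1 ± 1.5 in LFABP-/- and 18.6 ± 1.2 in WT iWAT (log2 difference -0.50 ± 0.10, adjusted p = 0.067). Dcn, which encodes decorin on the fibril surface, averaged 222 ± 35 in LFABP-/- and 314 ± 21 in WT iWAT (-0.51 ± 0.11, adjusted p = 0.089). Ddr1, a collagen receptor kinase mostly of epithelia, averaged 68.2 ± 17.6 in LFABP-/- and 33.0 ± 10.8 in WT iWAT and was higher (1.04 ± 0.23, adjusted p = 0.085).

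In iBAT, where 22.3% of all genes were called higher and 25.5% lower, 2 of 17 genes of hydroxylation and folding were higher and 6 lower, none of 9 of processing higher and 3 lower, 1 of 6 receptors higher and 4 lower, and none of 7 proteoglycans higher and 3 lower. Podn, a small proteoglycan of the matrix, averaged 2.52 ± 0.44 in LFABP-/- and 6.04 ± 1.13 in WT iBAT (-1.11 ± 0.14, adjusted p = 0.00032). Loxl1, an enzyme that crosslinks elastin and collagen, averaged 17.2 ± 0.6 in LFABP-/- and 24.3 ± 1.1 in WT iBAT (-0.48 ± 0.05, adjusted p = 0.00014). The lysyl hydroxylases Plod1, Plod2 and Plod3 were lower as well, by 0.43, 0.22 and 0.25 on the log2 scale. Serpinh1, the chaperone of procollagen, went the other way, with 269 ± 58 in LFABP-/- and 194 ± 24 in WT iBAT (0.46 ± 0.14, adjusted p = 0.028). Ppib and Itgb1 were higher by 0.16 and 0.15, and P3h1, P3h3, P3h4, Adamts2, Pcolce2, Itga1, Itga11, Ddr1, Ddr2, Dcn and Lum were lower, with differences of -0.79 to -0.21. Dcn was lower in both fat depots, with 20.5 ± 5.7 in LFABP-/- and 36.0 ± 10.5 in WT iBAT.

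In liver, where 13.9% of all genes were called lower, 3 of 15 genes of hydroxylation and folding, 4 of 8 of processing and 1 of 7 proteoglycans were lower, none of these was higher, and none of 5 receptors was called by limma (2 with an unadjusted p under 0.05). Mia3, which loads procollagen into carriers that leave the endoplasmic reticulum, averaged 54.4 ± 5.1 in LFABP-/- and 80.5 ± 8.1 in WT livers (-0.56 ± 0.10, adjusted p = 0.012). Plod3 averaged 15.1 ± 0.9 in LFABP-/- and 19.4 ± 2.6 in WT livers (-0.35 ± 0.10, adjusted p = 0.047). Bmp1, which cuts the end off procollagen, averaged 31.2 ± 2.1 in LFABP-/- and 39.3 ± 5.5 in WT livers (-0.32 ± 0.10, adjusted p = 0.076). P3h1, Adamts2, Loxl1, Loxl3 and Podn were the others that were lower, by 0.30 to 0.92 on the log2 scale.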

How the data were processed

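RNA of iWAT, iBAT and Liver of 10 male mice was sequenced, 5 per genotype, 30 libraries in all. The authors aligned single poly(A) reads to GRCm38 with CLC Genomics Workbench, counted Ensembl genes, and deposited values headed RPKM that sum to 999967.3 to 999996.4 per library and were treated as TPM. They carry 1 decimal, and since they hold no counts the depth is unknown and no counting interval is given.

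Values were compared as log2(value + 0.5) with limma 3.58.1 (R 4.3.3, statmod 1.5.0; empirical Bayes with a trend), so that fold changes of low genes are understated. Genotypes were compared in each tissue over genes with a mean of at least 1 in its 10 libraries. Tissues, and genotype effects between tissues, were compared over all 30 libraries in a fit that took the mouse as random block (correlation -0.0161). p-values were adjusted by Benjamini-Hochberg over all genes tested, with calls at 0.1. Exact permutation tests were 2-sided over 252 assignments. The fits were tested on simulated data.

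Replicate numbers were not taken to pair mice across genotypes, since the labels do not say so and in no tissue did all 5 pairs have a correlation of deviations from group means over 0.1 (-0.53 to 0.669, n = 15, 8 over 0.1). In iWAT 4 pairs had 0.501 to 0.669 and that of replicate 2 -0.334. The labels tie each number to 1 mouse across tissues within a genotype, where they were -0.416 to 0.394 (n = 30, 11 over 0.1).

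Values per library are given for the 2 highest genes of each class, for every collagen gene called between genotypes or in a genotype-by-tissue difference, and for Col1a1, Col1a2 and Col3a1; the others by range. Of the 4 lists of collagen-related genes, called members are named. The members and lists were chosen with earlier results of these data known. Alternatives were other pseudocounts, filters and scalings, a replicate block, the prefix of library names, marker covariates and libraries left out. The prefix was set per mouse. For 2 WT mice the name of the iWAT library carries another prefix than the names of the iBAT and liver libraries, whose prefix was used. Those on Fabp1, on hepatocyte markers, on skeletal muscle in iBAT and on chain ratios were chosen after seeing the data. Promoter sequences are from RefSeq on GRCm38.p6.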

Additional observations from a re-analysis of the deposited data

Results flagged for a closer look

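The named collagen genes and the class sums gave 118 groups of 5 libraries. Chance puts a library far from the other 4 in about 1 in 20 groups, if groups are independent and values normally distributed. These groups share genes and libraries, so that rate does not hold for them. In 19 groups a library lay far from the other 4. WT iBAT replicate 3 accounted for 8 of them: it had 97.3 of Col1a1, 51.1 of Col1a2, 107.3 of Col3a1 and 13.7 of Col15a1, and sums of 309.6 for fibrillar, 70.0 for type VI, 25.0 for other and 616.0 for all collagen genes, each the highest of the group. WT liver replicate 5 accounted for 7: it was the highest with 33.9 of Col1a1, 14.5 of Col1a2, 37.6 of Col3a1, 3.5 of Col16a1 and 6.1 of Col6a2, and the lowest with 361.7 of Col18a1 and a sum of 367.5 for other collagens. The remaining 4 were LFABP-/- liver replicate 4 for Col1a2 (3.2), LFABP-/- liver replicate 3 for the sum of fibril-associated collagens (16.9), WT iWAT replicate 4 for Col11a2 (6.0) and LFABP-/- iWAT replicate 5 for Col4a5 (3.2).

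By the interaction test in limma, a genotype difference that differed between tissues was called for 4 genes. Col20a1 had a mean under 1 in iBAT and in liver, and Col4a5 had one in liver. Nothing is read from the calls of these genes for iBAT minus liver. For iWAT minus iBAT the log2 values were 1.70 for Col11a2, -1.33 for Col4a5 and -0.91 for Col18a1. For iWAT minus liver it was -0.94 for Col20a1, and for iBAT minus liver the values were 0.86 for Col4a5, -0.79 for Col20a1 and 0.98 for Col18a1.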

How the results depend on the processing

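In iWAT, where 1 collagen gene was called, 0 were called with no filter on low values, under median-ratio scaling, at an adjusted p under 0.05 and with a covariate of skeletal muscle markers (6 with an unadjusted p under 0.05 in each), and 0 without the 5 libraries with high lymphocyte markers. In 1 fit of all 30 libraries the 1 called was Col4a5 in place of Col1a2. With lymphocyte markers as a covariate 6 were called, and with 1 library left out 0 to 5, the 5 without WT replicate 4. In iBAT, against 6, there were 3 at a mean of at least 5, 1 without the 3 libraries with the highest hepatocyte markers, 0 with those markers as a covariate and 3 to 7 with 1 library left out, the 3 without WT replicate 2. Without the 3 libraries with the highest hepatocyte markers Col4a5 fell under the level limit and was not tested. In liver, against 0, there was 1 (Col20a1, higher) with no filter and in 1 fit of all 30 libraries, and 0 to 4 with 1 library left out, the 4 without WT replicate 1. For genotype effects between iBAT and liver median-ratio scaling gave 5 calls, against 3. Without the 4 fat libraries labelled LFABP-/- with Fabp1 above WT there were 5 calls between iWAT and iBAT, against 3. Without the 5 iWAT libraries with high lymphocyte markers there was 1 call between iWAT and iBAT, against 3, and 0 between iWAT and liver, against 1. With 1 mouse left out these counts were 1 to 4 and 0 to 1. The causes of these changes were not tested.

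Signs changed in iWAT for Col4a2 (0.033 with the library name prefix, set per mouse, as a term, 0.111 with the lymphocyte covariate and 0.053 without the 5 libraries), Col27a1 (-0.129 and -0.141 in the last pair of settings), Col15a1 (0.007 and 0.006) and Col18a1 (0.027 and 0.084), and with 1 library left out for Col27a1 (-0.045 to 0.328), Col4a2 (-0.198 to 0.136) and Col18a1 (-0.223 to 0.076). In iBAT they changed for Col4a1 without the 3 libraries (-0.024) and for Col14a1 with skeletal muscle as a covariate (0.197) and with 1 library left out (-0.25 to 0.108). None of these genes was called as reported in the tissue in which its sign changed. Of all single-gene values under alternatives, 872 kept direction and side of the threshold, 63 lost a call, 22 gained one and 23 changed sign. The 30 values of chain ratios could not change sign, since only ratios whose groups did not overlap were computed again. The replicate block gave 1, 7 and 0 calls in iWAT, iBAT and liver, against 1, 6 and 0; in iBAT it lost Col27a1 (adjusted p = 0.12) and added Col4a1 (0.085) and Col4a2 (0.020). Leaving out the mouse block changed no count of calls between tissues by more than 1.5 times. Since the files hold no counts, the depth that limits genes with values near 1, such as Col7a1 and Col20a1, cannot be stated.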
